A study of Mus musculus with 8 samples.

Results

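The genes described here are 10 genes of the smooth muscle and myofibroblast contractile apparatus, Acta2, Actg2, Tagln, Cnn1, Myh11, Lmod1, Des, Mylk, Tpm2 and Myocd. They were chosen as a list of gene symbols, and for each the probe set with the highest mean signal among those mapped to that symbol alone was used. Each of the 10 had 1 such probe set, and all 10 were found among the 22180 named genes measured. The samples were mouse embryonic fibroblasts that lacked endogenous STING (STING-/- MEF), the endoplasmic reticulum adaptor of cytosolic DNA sensing. Into these cells had been placed the STING variant R284S, the STING mutant N154S, a mutation of the autoinflammatory disease SAVI according to the design text, human STING (hSTING) or the empty retroviral vector pBabe. Each of the 4 lines was measured once after double-stranded DNA (dsDNA) delivered with Lipofectamine 2000 for 9 h and once as a control, giving 8 arrays. Each line was a single cell population with 1 array per treatment, so a difference between lines includes any other difference between the populations, and the labels do not say whether control cells received the reagent without DNA.

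Smooth muscle cells and myofibroblasts generate force by sliding myosin along filaments of dedicated actin isoforms. Transcription of these genes is classically driven by serum response factor (SRF), which binds CArG boxes in their promoters together with myocardin or the related MRTF coactivators. Cultured fibroblasts take on part of this program on stiff plastic and in response to TGF-beta, and Acta2 is the usual marker of that myofibroblast state.

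The promoter sequence of Acta2, the gene with the brightest signal of the list, is shown because it carries the elements through which this program is known to act, and that of Lmod1 because Lmod1 had the largest dsDNA differences. Promoter windows from RefSeq, on mouse assembly GRCm38.p6, were at hand for 6 of the 10 genes (Acta2, Cnn1, Lmod1, Des, Mylk and Tpm2), and Actg2, Tagln, Myh11 and Myocd had none. In the 250 bases before the annotated start, CArG boxes were searched as a core of 6 bases that are all A or T between CC and GG, and again with 1 core base of another kind, a search added after the sequences had been seen. MCAT elements, bound by TEAD factors, were searched as CATTCC on both strands, and the matches of the 3 searches printed here do not overlap. Capitals mark the matches, which in Acta2 are an MCAT element followed by a pair of CArG boxes with 1 deviating core base, and in Lmod1 an MCAT element.
Acta2 (chr19:34255374-34255549, minus strand): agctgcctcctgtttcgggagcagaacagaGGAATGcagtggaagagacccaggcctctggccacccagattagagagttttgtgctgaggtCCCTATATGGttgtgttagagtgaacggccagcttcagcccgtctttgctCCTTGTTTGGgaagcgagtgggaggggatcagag
Lmod1 (chr1:135324653-135324718, plus strand): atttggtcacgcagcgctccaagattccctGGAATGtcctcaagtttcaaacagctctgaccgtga
A CArG box with 1 deviating core base was present in 1 of the 6 windows, that of Acta2, and in 7.24% of 32851 promoter windows. A CArG box with an undisturbed core was in 0 of the 6 and in 1.47% of all windows. MCAT was in 3 of the 6, those of Acta2, Lmod1 and Mylk, and in 12.6% of all windows. A match is a description of these letters and not a measured binding site.

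The signals are log2 values as deposited. Array medians over the named genes lay between 4.42 and 4.47, and the highest signal on any array was 13.22. Very dim and very bright array signals understate differences. The fibroblast label was checked against 10 markers. All 10 had a mean at or above the median of the named genes, among them Vim at 12.52 to 12.80. Of 5 macrophage and leukocyte markers 2 had a mean at or above the median, Cd68 at 5.77 to 6.52 and Csf1r at 4.30 to 4.80, while the leukocyte marker Ptprc read 2.48 to 2.67. Of 5 endothelial markers 2 did, Cdh5 at 4.09 to 5.01 and Kdr at 3.93 to 5.20, while Pecam1 read 3.68 to 4.07. Of 5 epithelial markers 2 did, the keratins Krt8 at 4.77 to 5.32 and Krt18 at 4.38 to 4.90, while Epcam read 2.24 to 2.58. Of 5 skeletal muscle markers 5 did, Acta1 at 8.58 to 9.91 and Myod1, Myog, Ckm and Tnnt3 between 4.02 and 5.26. Of 8 mature smooth muscle markers, most of them genes of the list itself, 7 did, and of 7 pericyte markers 5 did. A mean at or above the median was thus not particular to the fibroblast markers. Of the interferon response genes Isg15, Irf7, Usp18, Ifit1 and Oasl2, 5 of 5 passed as higher than in vector cells in R284S and in N154S cells by limma, where 226 and 157 of all 22180 genes did. In hSTING cells 2 of 5 passed by limma, where 22 of all genes did. The log2 differences of the 5 were 3.85 to 5.15, each at an unadjusted p under 0.05, beside 2058 of all 22180 genes in either direction. The mean signal of these 5 genes (log2 of the average linear signal) was 10.75 to 11.53 on the mutant arrays, 10.27 and 11.59 on the hSTING arrays, and 5.20 and 7.58 on the vector arrays, and its part in the differences below was not tested.

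The first question was how the contractile genes differed between the lines. The enteric smooth muscle actin Actg2 was lower in R284S cells and in N154S cells than in vector cells, by 4.35-fold and 3.45-fold. Calponin (Cnn1) and desmin (Des) passed as lower in R284S than in vector cells, by about 2-fold. In N154S cells their log2 differences were -1.06 and -0.85 and missed the threshold. None of the 10 genes passed the test in hSTING cells, where 0% of all genes passed as lower. Less RNA per cell and fewer contractile cells in the culture cannot be told apart in such bulk samples. The plot of all values by array shows the 10 genes side by side.

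**Figure D1:**
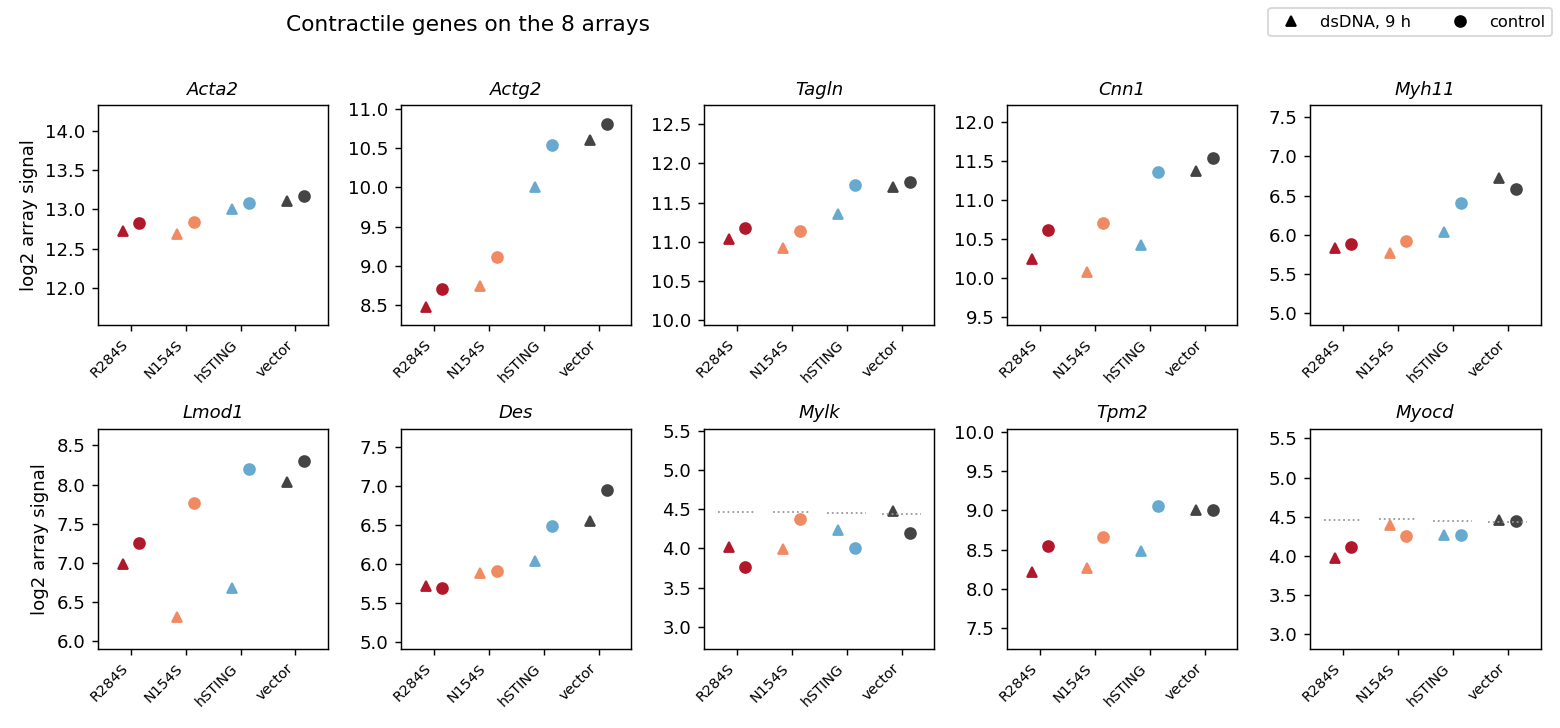
Log2 array signal (vertical axes, each spanning the same range of log2 units) of the 10 contractile genes in R284S, N154S, hSTING and vector cells, with triangles for dsDNA for 9 h and circles for control and 1 array per point. Dotted lines, shown for Mylk and Myocd only, mark the median of the named genes. Actg2 reads 8.48 to 9.11 in the mutant lines and 10.00 to 10.81 in the hSTING and vector lines.

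Actg2 (probe set 17468183) read 8.48 with dsDNA and 8.70 without in R284S cells, 8.74 and 9.11 in N154S cells, 10.00 and 10.54 in hSTING cells, and 10.61 and 10.81 in vector cells. The mutant and the other arrays did not overlap, and the gap between them was 0.89. Differences between lines over both treatments were tested with limma across all 22180 genes, with construct and treatment as additive terms and Benjamini-Hochberg adjustment. With 1 array per culture the residual of that fit is made of noise and of any dsDNA effect that differs among lines, so p-values are not set against replicate cultures. Actg2 was lower in R284S than in vector cells by 4.35-fold, a log2 difference of -2.12 (SE 0.13, adjusted p = 0.00187 by limma). The call held in 16 of 16 alternative fits, some of which repeat each other. Leaving out 1 hSTING or N154S array gives the same test of R284S against vector as leaving out that pair. In N154S cells the call was less steady. Actg2 was lower in N154S than in vector cells by 3.45-fold, at -1.79 (SE 0.13, adjusted p = 0.00519 by limma). That call was lost without the N154S control array, without the N154S dsDNA array or without the vector dsDNA array, at log2 differences of -1.81, -1.76 and -1.70. Those fits also called fewer of all genes, so the loss was not particular to Actg2.

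Acta2 (17364098), the alpha smooth muscle actin that defines myofibroblasts, read 12.72 with dsDNA and 12.82 without in R284S cells, 12.68 and 12.84 in N154S cells, 13.01 and 13.08 in hSTING cells, and 13.10 and 13.17 in vector cells. The highest signals on the arrays were 13.11 to 13.22, so Acta2 lay near the top of the range. The mutant arrays were again all below the others, by a gap of 0.17, but the fitted log2 differences from vector cells, -0.37 (SE 0.11) in R284S and -0.38 (SE 0.11) in N154S, did not pass (adjusted p = 0.208 and 0.201 by limma). The coding sequences of actin isoforms are closely alike, and the labels do not say how well the probes separate Acta2, Actg2 and the other actins.

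Among the filament-binding proteins, Tagln (17526576), which encodes the actin cross-linker transgelin (SM22-alpha), read 11.03 with dsDNA and 11.18 without in R284S cells, 10.92 and 11.14 in N154S cells, 11.36 and 11.72 in hSTING cells, and 11.70 and 11.76 in vector cells. The mutant arrays lay 0.18 or more below the others, with fitted log2 differences from vector cells of -0.63 in R284S (SE 0.13, adjusted p = 0.0661 by limma) and -0.70 in N154S (SE 0.13, adjusted p = 0.0578 by limma). Calponin, an inhibitor of actomyosin ATPase, is encoded by Cnn1. Cnn1 (17515402) read 10.24 with dsDNA and 10.62 without in R284S cells, 10.08 and 10.71 in N154S cells, 10.43 and 11.35 in hSTING cells, and 11.37 and 11.53 in vector cells. The hSTING dsDNA array lay inside the range of the mutant arrays, so the groups overlapped. Cnn1 was lower in R284S than in vector cells by 2.03-fold, a log2 difference of -1.02 (SE 0.19, adjusted p = 0.0486 by limma). In N154S cells the difference was -1.06 (SE 0.19) and missed the threshold (adjusted p = 0.0549 by limma).

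Tpm2 (17424656) encodes beta-tropomyosin, which lies along the actin filament. It read 8.21 with dsDNA and 8.55 without in R284S cells, 8.27 and 8.66 in N154S cells, 8.48 and 9.06 in hSTING cells, and 9.00 and 9.01 in vector cells. The lines overlapped, and its fitted log2 differences from vector cells were -0.63 (SE 0.16, adjusted p = 0.121 by limma) in R284S and -0.54 (SE 0.16, adjusted p = 0.185 by limma) in N154S. Lmod1 (17217596), which encodes the smooth muscle leiomodin that nucleates actin filaments, read 6.99 with dsDNA and 7.25 without in R284S cells, 6.31 and 7.77 in N154S cells, 6.68 and 8.20 in hSTING cells, and 8.03 and 8.30 in vector cells. Its differences from vector cells were -1.05 in R284S and -1.13 in N154S, but its SE of 0.35 was the largest of the 10 genes (adjusted p = 0.233 and 0.204 by limma), since its dsDNA difference was uneven between lines.

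Of the motor and intermediate filament genes, Myh11 (17328368), the smooth muscle myosin heavy chain, read 5.83 with dsDNA and 5.88 without in R284S cells, 5.77 and 5.92 in N154S cells, 6.03 and 6.41 in hSTING cells, and 6.73 and 6.58 in vector cells. All mutant arrays were below all others, by 0.11, and the fitted log2 differences were -0.80 (SE 0.15, adjusted p = 0.0531 by limma) in R284S and -0.81 (SE 0.15, adjusted p = 0.0634 by limma) in N154S. Des (17214476), the muscle intermediate filament protein desmin, read 5.72 with dsDNA and 5.69 without in R284S cells, 5.89 and 5.91 in N154S cells, 6.04 and 6.49 in hSTING cells, and 6.55 and 6.95 in vector cells. Des was lower in R284S than in vector cells by 2.06-fold, a log2 difference of -1.05 (SE 0.16, adjusted p = 0.0265 by limma), with no overlap between the mutant and the other arrays. In N154S cells it differed by -0.85 (SE 0.16, adjusted p = 0.0648 by limma). A further probe set that Des shares with the predicted gene Gm15179 read 4.21 to 4.74, near the array medians of 4.42 to 4.47, and was not used. It read 4.74 with dsDNA and 4.44 without in R284S cells, and 4.21 and 4.68 in vector cells. Its R284S signal was thus lower than that of vector cells without dsDNA and higher with it. The calls of Cnn1 and Des in R284S cells were both lost on leaving out any of the R284S, N154S or vector arrays, with adjusted p of 0.106 to 0.353 for Cnn1 and 0.0762 to 0.221 for Des by limma, while leaving out an hSTING array kept both.

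The regulatory members were dim. Myocd (17264159), the SRF coactivator myocardin, read 3.97 with dsDNA and 4.11 without in R284S cells, 4.40 and 4.25 in N154S cells, 4.27 and 4.27 in hSTING cells, and 4.46 and 4.45 in vector cells. Mylk (17325159), the kinase that phosphorylates the myosin light chain to start contraction, read 4.02 with dsDNA and 3.76 without in R284S cells, 3.99 and 4.38 in N154S cells, 4.24 and 4.0 in hSTING cells, and 4.48 and 4.20 in vector cells. Myocd was at or above the array median of the named genes on 2 arrays and Mylk on 1. A signal this low is not read as absence, and no fold is given for either gene. Their fitted log2 differences from vector cells were -0.42 and -0.45 in R284S and -0.13 and -0.16 in N154S, and none of these passed (adjusted p = 0.193 to 0.763 by limma).

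Counted over the list, 3 of 10 genes passed as lower in R284S than in vector cells (Actg2, Cnn1 and Des), where 1.02% of all genes did. In N154S against vector cells 1 of 10, Actg2, passed as lower, where 0.609% of all genes did. The median log2 difference of the 10 genes was -0.71 in R284S and -0.76 in N154S cells, beside 0.01 and 0.005 over all genes. In hSTING against vector cells 0 of 10 passed by limma, and 0% of all genes passed as lower. At an unadjusted p under 0.05 stood 4 of the 10, beside 2058 of all 22180 genes in either direction. The median in hSTING cells was -0.34 beside -0.015 over all genes. The 3 comparisons share the vector arrays, so they are not independent of each other. The counts for the mutants rest on values close to the threshold and moved together with the number of all genes called. The main fit called 453 genes in R284S and 292 in N154S cells, in either direction. With the filter on dim genes 5 of 8 passed in R284S and 5 of 8 in N154S cells, beside 762 and 662 of the 11098 genes kept. With robust eBayes moderation and a variance trend 7 and 6 of 10 passed, beside 854 and 726 of all genes. Without the hSTING pair of arrays 5 of 10 passed in N154S cells, beside 594 of all 22180 genes in either direction. Without the N154S pair 1 of 10 passed in R284S cells, beside 129 of all genes. The counts also changed on leaving out single arrays, and so did those of all genes. Over the alternative fits the Actg2 difference ran from -1.87 to -1.70 in N154S and from -2.21 to -2.03 in R284S cells.

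**Figure D2:**
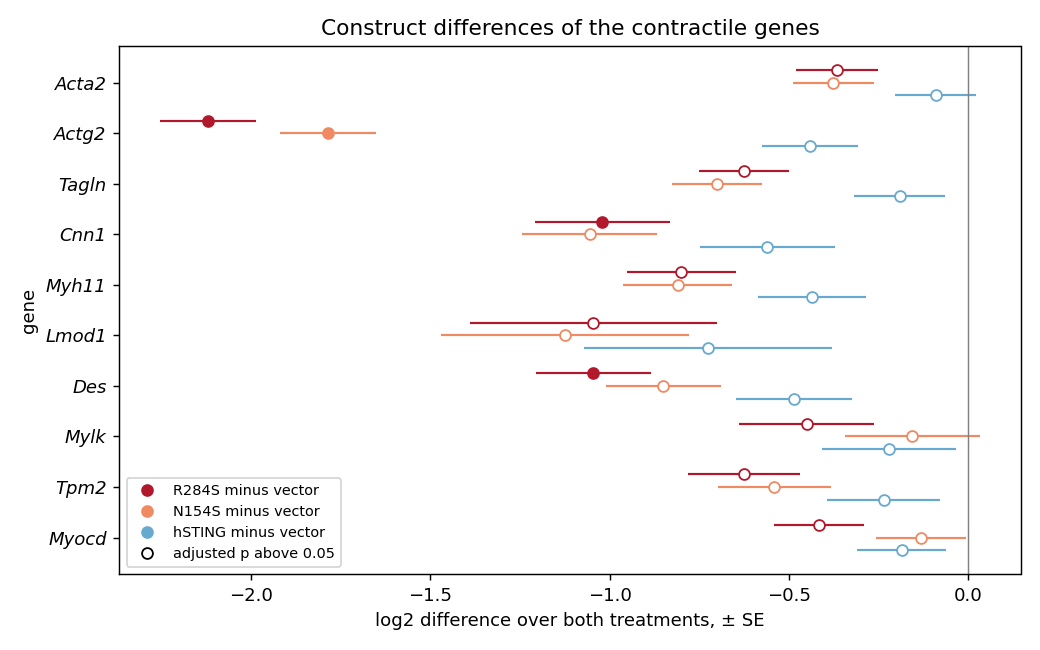
Log2 difference from vector cells over both treatments (horizontal axis, ± SE of the limma fit, 2 arrays per line) of the 10 contractile genes in R284S, N154S and hSTING cells. Filled points have an adjusted p of 0.05 or below. Actg2 lies farthest from 0, at -2.12 and -1.79 in the mutant lines and at -0.44 in hSTING cells.

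In the control cultures alone Actg2 was 4.32-fold lower in R284S than in vector control cells, Des 2.39-fold and Lmod1 2.07-fold, so that 3 of 10 genes were lower by 2-fold or more, where 0.721% of all genes were. In N154S control cells Actg2 was 3.25-fold and Des 2.06-fold lower than in vector control cells, 2 of 10 genes against 0.406% of all genes. In hSTING control cells 0 of 10 genes were lower by 2-fold or more (0.018% of all genes), and the largest difference was that of Des, at 6.49 against 6.95. These are comparisons of 2 arrays with no replicate check.

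The mutants were next set against hSTING cells, which carry the human STING construct. Actg2 was lower in R284S than in hSTING cells by 3.20-fold, a log2 difference of -1.68 (SE 0.13, adjusted p = 0.00606 by limma). It was the 1 gene of the 10 that passed, where 0.442% of all genes did, and its adjusted p was 0.0744 without the R284S control array and 0.0716 without the R284S dsDNA array by limma. In N154S against hSTING cells Actg2 differed by -1.35 (SE 0.13, adjusted p = 0.102 by limma). There 0 of 10 genes and 0% of all genes passed as lower by limma, but Actg2 passed with the filter on dim genes and Actg2 and Tagln with the robust moderation. At an unadjusted p under 0.05 stood 5 of the 10 in that comparison, beside 1974 of all 22180 genes in either direction. The median log2 difference from hSTING cells was -0.38 in R284S and -0.37 in N154S. In control cultures alone Actg2 was 3.58-fold lower in R284S and 2.69-fold lower in N154S than in hSTING cells, and it was in each the 1 of 10 genes past 2-fold, where 0.482% and 0.221% of all genes were lower by that much.

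Between the mutants, R284S minus N154S, 0 of 10 genes passed by limma, and 0.00451% of all genes passed as lower. At an unadjusted p under 0.05 stood 1 of the 10, beside 1568 of all 22180 genes in either direction. The log2 differences ran from -0.34 for Actg2 (SE 0.13, adjusted p = 0.681 by limma) to 0.08 for Lmod1, with a median of -0.04. In control cultures 0 of 10 were lower in R284S by 2-fold or more, where 0.302% of all genes were.

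With values of both treatments pooled by line, a grouping looked at after the data were seen, all 4 mutant arrays lay below all 4 hSTING and vector arrays for 5 of the 10 genes, Actg2, Acta2, Tagln, Myh11 and Des. The same held for 3.67% of all genes, and for 5.85% of the genes with a mean at or above the median. Among control arrays both mutants were below both others for 9 of 10 genes, beside 21.1% of all genes, with Mylk as the exception. Among dsDNA arrays this held for 8 of 10 genes, beside 15.8% of all genes, with Lmod1 and Myocd as exceptions.

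The second question was whether dsDNA altered the contractile genes, and whether it did so in cells with a STING construct. The largest dsDNA differences were those of Lmod1 in hSTING and N154S cells. No gene of the 10 passed the test over all lines, where 0 of all 22180 genes passed in either direction. Lmod1 was 2.87-fold lower with dsDNA in hSTING cells, at 6.68 against 8.20, and 2.75-fold lower in N154S cells, at 6.31 against 7.77. In R284S cells it read 6.99 with dsDNA against 7.25, and in vector cells 8.03 against 8.30. Lmod1 was thus the 1 of 10 genes lower by 2-fold or more in hSTING cells and in N154S cells, where 0.5% and 0.108% of all genes were. In R284S and in vector cells 0 of 10 were, beside 0.0406% and 0.0361% of all genes.

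Cnn1 came next, with dsDNA minus control log2 differences of -0.92 in hSTING, -0.63 in N154S, -0.38 in R284S and -0.16 in vector cells. Tpm2 differed by -0.58 in hSTING, -0.39 in N154S, -0.34 in R284S and -0.01 in vector cells. For Actg2 the differences were -0.54, -0.37, -0.22 and -0.20 in the same order of lines. Des ran otherwise, with -0.02 in N154S and 0.03 in R284S cells, where its control signal was lower, and -0.45 in hSTING and -0.40 in vector cells. The medians of the 10 dsDNA differences were -0.42 in hSTING, -0.30 in N154S, -0.15 in R284S and -0.07 in vector cells, beside medians over all genes of -0.01, -0.01, 0 and 0.

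In the limma fit over the 4 lines 0 of 10 genes passed for dsDNA minus control, and 0% of all genes passed as lower. At an unadjusted p under 0.05 stood 4 of the 10, beside 2395 of all 22180 genes in either direction. The 4 were Cnn1 at -0.52 (SE 0.13), Lmod1 at -0.88 (SE 0.24), Actg2 at -0.33 (SE 0.09) and Tpm2 at -0.33 (SE 0.11), each with an adjusted p of 0.448 by limma. The dsDNA effect in the 3 STING lines was set against that in vector cells in a fit with 2 residual degrees of freedom. For this difference 0 of 10 genes passed by limma, and 0% of all genes passed as lower. At an unadjusted p under 0.05 stood 0 of the 10, beside 798 of all 22180 genes in either direction. Lmod1 had the largest value, -0.81 (SE 0.51, adjusted p = 0.994 by limma), and the number of arrays limits the precision of this comparison.

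**Figure D3:**
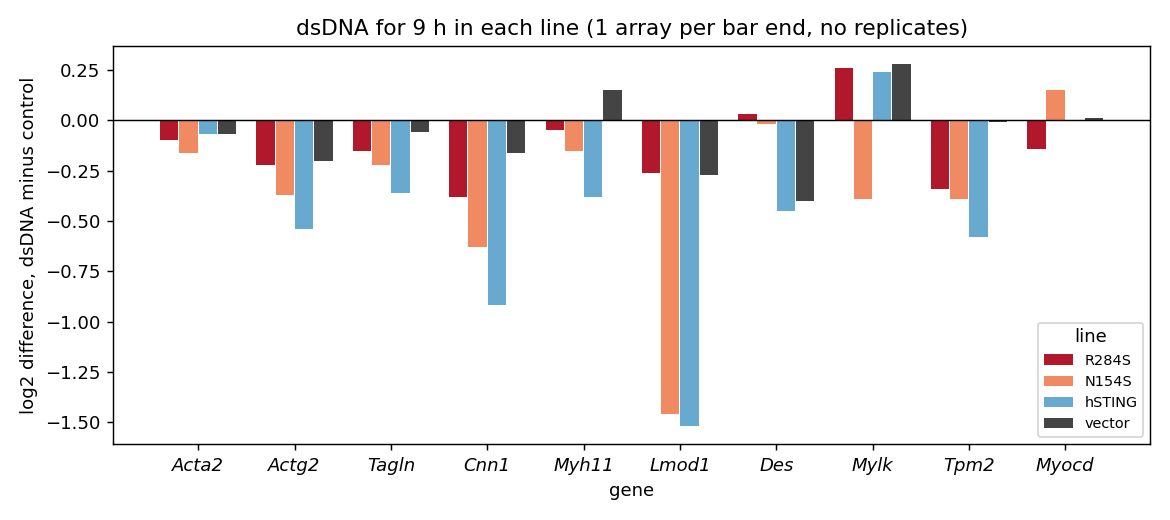
Log2 difference, dsDNA for 9 h minus control (vertical axis), of each contractile gene in R284S, N154S, hSTING and vector cells, each bar being the difference of 2 arrays with no replicates. Lmod1 reaches -1.52 in hSTING and -1.46 in N154S cells, against -0.26 in R284S and -0.27 in vector cells.

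The genes around the contractile apparatus were then described from 6 lists. Beside the counts of each list stand the 1.02% of all genes that passed as lower in R284S and the 0.609% in N154S cells. Of 23 measured channel, receptor and adhesion genes of smooth muscle, 3 fell in R284S and 3 in N154S cells against vector cells, with list medians of -0.25 and -0.20. These were the integrin subunits Itga8 and Itga1 and the regulatory subunit of the calcium-activated potassium channel, Kcnmb1. Itga8 read 5.01 with dsDNA and 4.87 without in R284S cells, 5.09 and 5.41 in N154S cells, 6.0 and 6.13 in hSTING cells, and 6.63 and 6.43 in vector cells. Its log2 difference was -1.59 in R284S (SE 0.16, adjusted p = 0.0063 by limma) and -1.28 in N154S cells (SE 0.16, adjusted p = 0.0181 by limma). The log2 differences of Kcnmb1 were -1.43 in R284S and -1.28 in N154S cells, and those of Itga1 -1.29 in R284S and -1.02 in N154S cells (adjusted p of at most 0.022 by limma).

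Of 24 measured TGF-beta pathway genes, 3 fell in R284S and 2 in N154S cells, with list medians of -0.14 and -0.12. The TGF-beta-induced matrix protein gene Tgfbi had log2 differences of -1.48 in R284S (SE 0.17) and -1.68 in N154S cells (SE 0.17), and the ligand Tgfb2 of -1.35 in R284S and -1.10 in N154S cells (SE 0.13 each), with adjusted p of at most 0.0151 by limma. The ligand Tgfb3 differed by -1.25 in R284S cells (SE 0.18, adjusted p = 0.0227 by limma) and by -0.70 in N154S cells (adjusted p = 0.15 by limma).

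In the list of SRF and myocardin family regulators, 1 of 21 measured genes fell in R284S and 0 in N154S cells, with medians of -0.11 and -0.14. That gene was Fhl1, a LIM-domain protein of muscle, at -0.93 in R284S (SE 0.15, adjusted p = 0.0355 by limma) and -0.66 in N154S cells (adjusted p = 0.109 by limma). Srf itself, singled out after its values were seen, read 7.52 with dsDNA and 7.99 without in R284S cells, 7.59 and 8.14 in N154S cells, 7.56 and 8.28 in hSTING cells, and 8.18 and 8.48 in vector cells. Each line was lower with dsDNA than without, and the fitted dsDNA difference was -0.51 (SE 0.10, adjusted p = 0.448 by limma). Against vector cells Srf differed by -0.575 in R284S and -0.465 in N154S cells (SE 0.14 each), which did not pass either (adjusted p = 0.109 and 0.193 by limma). Among 23 measured myosin genes and their kinases and phosphatases, 1 fell in R284S and 0 in N154S cells, with medians of -0.22 and -0.24. This was Ppp1r14a, the smooth muscle inhibitor of myosin phosphatase, at -1.09 in R284S (SE 0.20, adjusted p = 0.0472 by limma) and -1.04 in N154S cells (adjusted p = 0.0659 by limma). The calls of these 8 genes in R284S cells, from Itga8 to Ppp1r14a, were each lost without the R284S control array and without the vector dsDNA array. Their highest adjusted p over the alternatives was 0.0771 for Tgfb2 to 0.359 for Ppp1r14a by limma. The 5 calls in N154S cells were each lost on leaving out any of the N154S or vector arrays, with a highest adjusted p of 0.135 for Tgfbi to 0.287 for Itga1 by limma.

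Of all 22180 genes, 3166 in R284S and 3296 in N154S against vector cells were at an unadjusted p under 0.05 by limma, in either direction. None of the 34 measured actins and filament partners passed by limma in R284S or N154S cells, with 9 and 10 at an unadjusted p under 0.05 and medians of -0.23 and -0.22. The brightest of them were the cross-linker Actn1, at 11.33 to 11.71 over the 8 arrays, and the LIM protein Csrp1, at 10.97 to 11.66. In the striated muscle list 0 of 18 passed by limma in R284S or in N154S cells, with 2 at an unadjusted p under 0.05 in each and medians of -0.02 and -0.003. Its brightest member was the skeletal muscle actin Acta1, which is also on the actin list and which read 9.55 with dsDNA and 9.79 without in R284S cells, 9.38 and 9.91 in N154S cells, 8.58 and 9.62 in hSTING cells, and 9.17 and 9.29 in vector cells. Acta1 thus stood higher on the mutant arrays than on the vector arrays, though without passing (0.44 in R284S, SE 0.22, adjusted p = 0.434 by limma). Tnnt2, the cardiac troponin T, read 6.12 to 6.70.

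**Figure D4:**
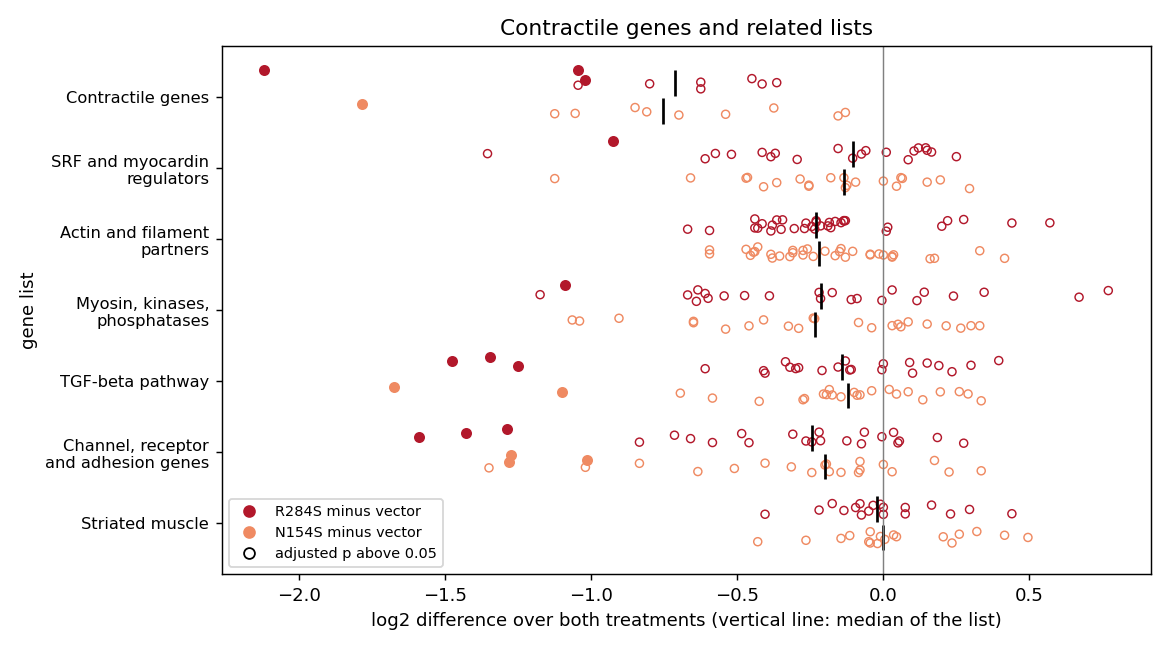
Log2 difference from vector cells over both treatments (horizontal axis) of the 10 contractile genes and of the measured members of 6 related lists in R284S and N154S cells, 1 point per gene, filled where the adjusted p was 0.05 or below, with the list median as a vertical line. Myocd appears in the contractile and the regulator list, and Acta1 in the actin and the striated list. The medians are -0.71 and -0.76 for the contractile genes and -0.02 and -0.003 for striated muscle.

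Of 7 pericyte markers 3 fell in R284S (Cspg4, Mcam and Pdgfrb) and 2 in N154S cells (Mcam and Pdgfrb), where 1.02% and 0.609% of all genes did. The median of the pericyte list was -0.16 in R284S and -0.14 in N154S cells. Rgs5 differed by 0.37 in R284S and 0.30 in N154S cells, Abcc9 by 0.05 and 0.18, Kcnj8 by -0.02 and 0.29, and Notch3 by -0.16 and -0.14, none of which passed by limma. The log2 of the average linear signal of the pericyte list, which weights its bright genes most, was 6.93 to 7.13 on the mutant arrays against 7.57 to 7.91 on the hSTING and vector arrays. Of 10 fibroblast markers 5 fell in R284S (Col1a1, Col3a1, Lum, Pdgfrb and Thy1) and 3 in N154S cells (Col1a1, Col3a1 and Pdgfrb). Their median log2 difference was -0.88 in R284S and -0.69 in N154S cells, beside -0.71 and -0.76 for the contractile genes. Below 0 were 10 of the 10 in R284S and 9 in N154S cells, so a lower signal was not particular to the contractile genes. The mean signal of the fibroblast markers was 10.38 to 10.62 on the mutant arrays against 10.64 to 10.90 on the others. The part of these markers in the contractile differences was not tested.

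The 10 genes varied together to different degrees over the 8 arrays, which are described here without a test and which share the lines and their treatments. Pearson's r with Acta2 was 0.98 for Tagln, 0.97 for Actg2, 0.91 for Myh11, 0.90 for Cnn1, 0.89 for Des and for Tpm2 and 0.75 for Lmod1. Lmod1 was closest to Cnn1, with r of 0.94, and the dim genes Mylk and Myocd had r of 0.46 and 0.57 with Acta2. Among 1364 other genes with a mean at or above the median and a range of at least 1, those closest to Actg2 were the type VI collagen genes Col6a3 and Col6a1 and the metalloproteinase gene Mmp23 (r of 0.997, 0.995 and 0.995). Closest to Acta2 were the palmitoyltransferase gene Zdhhc14, the sortilin-family receptor Sorcs2 and the basement membrane collagen Col4a1 (r of 0.991, 0.988 and 0.983). Closest to Tagln were the LIM protein Crip1, the centromere histone Cenpa and the mitotic cyclin Ccnb2 (r of 0.995, 0.995 and 0.987).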

How the data were processed

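Total RNA, 300 ng per sample, was prepared for Affymetrix arrays with WT PLUS reagents, per the labels' protocols. Affymetrix Expression Console 1.3.1.187 was used, per the submitters' processing notes, while no label names its algorithm. The deposited values are log2 signals rounded to 2 decimals, of 41345 probe sets on 8 arrays. For arrays, their number limits the precision.

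Of the probe sets 23521 had 1 gene symbol in the platform annotation, 1814 had several and 16010 were not listed there. The brightest probe set per symbol gave 22180 genes. With limma 3.58.1 (R 4.3.3), differences were fitted across all genes (construct and treatment additive, 3 residual degrees of freedom, eBayes, Benjamini-Hochberg at 0.05), with a second fit for dsDNA in STING lines, and the fit was tested on simulated data. Pairs of arrays were compared without a test, counting 2-fold differences in which the brighter signal reached its array's median. Named genes were the 10 members, up to 4 called genes per list (or the 2 brightest), and the 3 most similar genes to Acta2, Actg2 and Tagln, while marker genes named beside a count were chosen after their values were seen. Genes, lists and tests were chosen with earlier results of these data known. Alternatives changed the filter, the variance moderation, the scaling, the probe set rule, the genes tested and the arrays used.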

Additional observations from a re-analysis of the deposited data

How the results depend on the processing

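No paired analysis was possible because the labels give no replicate numbers, beyond the pairing of each line's dsDNA and control arrays that the construct term of the additive fit already makes. Of 1274 alternative values of single genes, 1213 kept their side of the threshold, 42 newly passed, 19 no longer did, and 0 changed direction while called. Some of these values repeat each other, since leaving out 1 array of a line outside a comparison gives the same test as leaving out that pair. For N154S minus vector the count of 1 became 5 with the filter on dim genes, 6 with robust eBayes moderation and a variance trend, 4 with median-shifted arrays, 2 with protein-coding genes only and 5 without the hSTING pair of arrays, and leaving out single arrays gave 0 to 5. For R284S minus vector the count of 3 became 5 with the filter, 7 with the robust moderation and 1 without the N154S pair of arrays, and leaving out single arrays gave 1 to 4. For N154S minus hSTING the count of 0 became 1 with the filter and 2 with the robust moderation, and for R284S minus hSTING the count of 1 became 3 with the robust moderation and 0 to 1 on leaving out single arrays. Counts for hSTING minus vector, R284S minus N154S and both dsDNA tests were 0 in every fit that could be run. Leaving out a vector array leaves no estimate of the dsDNA effect particular to STING lines. Over all genes the count of 453 for R284S minus vector became 762 with the filter and 854 with the robust moderation, 129 without the N154S pair, and 55 without the R284S control array, and that of 292 for N154S minus vector became 662, 726, 594 without the hSTING pair, 178 without the R284S pair and 0 without either N154S array. The count of 211 for R284S minus hSTING became 456 with the filter, 584 with the robust moderation and 2 without the R284S control array, that of 0 for N154S minus hSTING became 16 and 125, and that of 22 for hSTING minus vector ranged from 0 without an N154S array to 388 without the hSTING control array. At 1.5-fold in place of 2-fold, the control culture counts became 5 for N154S and 5 for R284S against vector, 2 and 4 against hSTING, and the dsDNA counts became 2 in hSTING and 2 in N154S cells. A looser threshold also takes in more of all genes. Their share at 1.5-fold is not given here, so these counts do not say whether the members stood out. The count of 5 genes with all mutant arrays below the others was 9 among control and 8 among dsDNA arrays alone. Over all genes the shares were 3.67%, 21.1% and 15.8% in the same order. With fewer arrays this count can only stay or rise, so the 2 smaller sets are no check of it. Both groupings were chosen after seeing the data, as were the alternative fits of the 8 related genes. An arm left with 1 array is assumed to vary like the others. Signals of Mylk and Myocd near or below the array median limit what can be seen for them.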
